A study of Mus musculus with 12 samples.

Results

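The genes described here carry a cell through mitosis and guard the separation of its chromosomes. They are a named set of 45 genes, of which 44 had a probe set that the array annotation assigns to 1 gene, out of 18193 genes so represented on the array. The exception is Ccnb1, which encodes cyclin B1 and has no value here. Each gene is given by its brightest single-gene probe set over 12 arrays, and all 44 genes lay above the filter on low values on all 12 arrays, with intensities between 91.9 and 6224.

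The study profiled total RNA on mouse Affymetrix arrays, 3 arrays for each of 4 groups. The leukaemias are T-cell acute lymphoblastic leukaemia (T-ALL) driven by Notch1, either MBD2-/- or MBD2+/+, and were taken as GFP+ bone marrow cells sorted from transplanted recipients once more than 50% of their blood white cells were GFP+. The normal cells are CD4+CD8+ (double-positive) thymocytes sorted from the thymus of MBD2-/- or MBD2+/+ mice at steady state. MBD2 is a reader of methylated DNA, and the study asked what its loss changes in the leukaemia, with thymocytes as a second control. The labels do not give the age or sex of the mice or the vector, and they do not say whether the 3 samples of a group came from separate mice, so every p-value reflects no more than the variation among these 3 samples, which may be technical. The comparisons below share arrays, each group entering more than 1 of them.

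Entry into mitosis is driven by CDK1 bound to cyclins A and B, which the CDC25 phosphatases switch on, and by the Polo-like and Aurora kinases. The spindle checkpoint, made of MAD and BUB proteins and the kinase TTK, holds CDC20 back from the anaphase-promoting complex (APC/C) until every chromosome is attached to the spindle. Most of these genes are transcribed late in the cell cycle, under MuvB complexes with B-MYB and FOXM1, so their messenger RNA in a sample depends on how many cells are in G2 and mitosis. In the thymus, cells divide rapidly as they become double-positive and then largely stop.

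The arrays differed in ways that bear on these genes. Mbd2 gave an intensity of 54.4 ± 12.4 in MBD2-/- leukaemias and 820 ± 119 in MBD2+/+ leukaemias (mean ± SD, n = 3 each), and 72.1 ± 10.7 in MBD2-/- thymocytes against 1136 ± 206 in MBD2+/+ thymocytes. The female-specific transcript Xist lay between 32.1 and 40.8 in MBD2-/- leukaemias and between 3846 and 4819 in MBD2+/+ leukaemias, and it lay between 28.6 and 45.7 in all thymocytes. Sex therefore cannot be told apart from genotype between the leukaemias, from cell type between MBD2+/+ leukaemias and MBD2+/+ thymocytes, or from the difference of genotype effects. Of the 45 genes only Kif4 is on the X chromosome. The Gapdh 3' to 5' signal ratio, a measure of RNA degradation, lay between 0.964 and 3.68. Poly-A control transcripts gave signal on 5 arrays, namely MBD2-/- leukaemia 1, MBD2+/+ leukaemias 1 and 2 and MBD2+/+ thymocytes 1 and 2. The summed intensity of 11 neutrophil markers was 336.6 to 983.5 in MBD2-/- leukaemias, 1214 to 2107 in MBD2+/+ leukaemias, 270.8 to 572.2 in MBD2-/- thymocytes and 250.4 to 521.0 in MBD2+/+ thymocytes. Of the early granule genes, Elane, Mpo and Prtn3 were at no more than 39.7 on any array. Ctsg was at 24.0 to 200.7 in MBD2-/- leukaemias (mean 84.6) and 21.7 to 27.8 in MBD2+/+ leukaemias (mean 24.2), with the groups overlapping. The 8 erythroid markers summed to 322.2 to 357.3 in MBD2-/- leukaemias and 503.0 to 688.1 in MBD2+/+ leukaemias, with the globin gene Hba-a1 at no more than 17.0 in either. Klf1, an erythroid transcription factor gene, ran the other way, at 79.2 to 118.4 in MBD2-/- leukaemias and 40.0 to 64.8 in MBD2+/+ leukaemias, against at most 20.4 in thymocytes. Monocyte and macrophage markers (8 measured) summed to 241.4 to 365.9 in MBD2-/- leukaemias and 419.6 to 470.0 in MBD2+/+ leukaemias, and B cell markers (8 measured) to 232.9 to 302.3 in MBD2-/- leukaemias and 187.4 to 197.2 in MBD2+/+ leukaemias. The part of sex and of these cells in the results was not tested. The 11 T cell markers summed to 13170 to 17230 in MBD2-/- leukaemias, 22910 to 29070 in MBD2+/+ leukaemias and 46570 or more in thymocytes. Of these, Cd3e was between 1910 and 4489 on every array. Cd4 was between 91.8 and 94.2 in MBD2-/- leukaemias, between 252.6 and 299.6 in MBD2+/+ leukaemias and at 1285 or more in thymocytes. Cd8b1 was between 42.4 and 100.7 in MBD2-/- leukaemias, between 2442 and 4631 in MBD2+/+ leukaemias and at 5262 or more in thymocytes. The leukaemias thus differed in CD8 as well, and neither had the thymocytes' level. Rag1 was at 42.3 or less in both leukaemias and at 8889 or more in thymocytes. Ptcra ran the other way in MBD2+/+ leukaemias, at 1380 to 1737. It was at 25.7 to 40.7 in MBD2-/- leukaemias and 332.5 to 519.3 in thymocytes.

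Averaged over the 44 genes, the level on the log2(intensity + 16) scale was 9.63, 9.88 and 9.58 on the MBD2-/- leukaemia arrays and 10.07, 10.07 and 9.89 on the MBD2+/+ leukaemia arrays. It was 9.48, 9.63 and 9.92 on the MBD2-/- thymocyte arrays and 9.63, 9.61 and 9.37 on the MBD2+/+ thymocyte arrays. The MBD2+/+ leukaemias were thus the group with the highest mean, although its lowest array, at 9.89, lay next to MBD2-/- leukaemia array 2 and below MBD2-/- thymocyte array 3. Because these are bulk samples, fewer dividing cells and less of each transcript per dividing cell cannot be told apart.

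**Figure D1:**
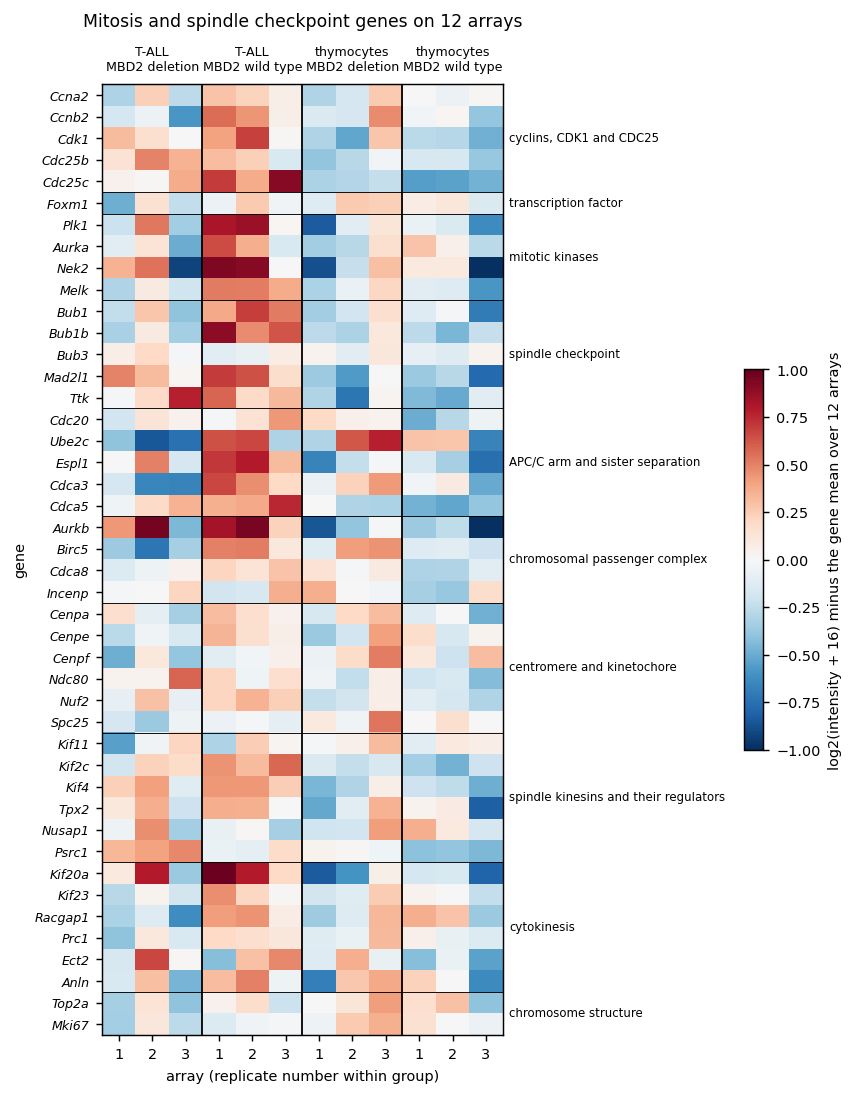
Heat map of 44 mitosis and spindle checkpoint genes (rows, grouped by role) on 12 arrays (columns, 3 per group); the colour is log2(intensity + 16) minus the gene's mean over 12 arrays, red above and blue below. MBD2+/+ leukaemias 1 and 2 are red for most genes, and MBD2-/- thymocyte 1 and MBD2+/+ thymocyte 3 are blue for most.

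Within every group, the array with the highest Gapdh ratio held the most minima of these genes. It was array 3 of the MBD2-/- leukaemias (ratio 2.98), with 21 of the 44 genes at their lowest (47.7%, against 35.8% of all tested genes), and array 3 of the MBD2+/+ leukaemias (ratio 2.48), with 26 (59.1%, against 40.9%). In thymocytes it was array 1 of the MBD2-/- group (ratio 3.33), with 30 (68.2%, against 34.9%), and array 3 of the MBD2+/+ group (ratio 3.68), also with 30 (68.2%, against 40.2%). The kinase gene Nek2, which acts on centrosome separation, shows this most plainly. It gave 200.8, 323.9 and 474.9 in MBD2-/- thymocytes and 410.9, 410.8 and 157.8 in MBD2+/+ thymocytes, so that the lowest array of each group was the one with the highest ratio. The genes also scattered more than most: the median SD among replicates on the log2 scale was 0.25 in MBD2-/- leukaemias, 0.213 in MBD2+/+ leukaemias, 0.265 in MBD2-/- thymocytes and 0.215 in MBD2+/+ thymocytes. Over all tested genes it was between 0.151 and 0.165 in the 4 groups.

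**Figure D2:**
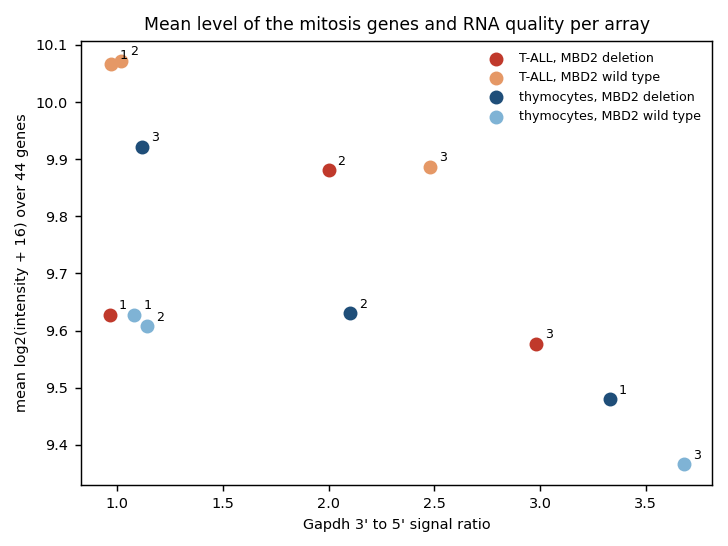
Mean log2(intensity + 16) over the 44 genes (vertical axis) against the Gapdh 3' to 5' signal ratio (horizontal axis) for each of 12 arrays, coloured by group and numbered by replicate. The array with the highest ratio has the lowest mean in each of the 4 groups, for example 9.37 at a ratio of 3.68 among MBD2+/+ thymocytes.

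Between leukaemia genotypes, 5 of the 44 genes were lower in MBD2-/- than in MBD2+/+ leukaemias and 0 were higher at an adjusted p under 0.05 (limma, adjusted over 15420 genes). That is 11.4% lower, where 6.98% of all tested genes were called lower, 9.19% higher and 16.2% in either direction. Over all genes that is 1417 higher and 1076 lower, and with arrays centred on their 75th percentile 1355 higher and 1656 lower. The 5 were Cdca3, Bub1b, Birc5, Melk and Racgap1, which serve mitotic entry, the checkpoint, the chromosomal passenger complex, a mitotic kinase and cytokinesis. The median log2 difference of the 44 genes was -0.28, against -0.06 for all tested genes, and 37 of them had a negative difference. For 13 genes (29.5%) the MBD2-/- arrays all lay below the MBD2+/+ arrays, and for 1 all above, against 18.4% and 15% of all tested genes. By p unadjusted and under 0.05, 13 were lower and 1 higher, against 14.7% and 14.3% of all tested genes.

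These 5 calls rest on few arrays. Without MBD2+/+ replicate 1 the count was 0 (7 at an unadjusted p under 0.05), without MBD2+/+ replicate 2 it was 1, and without MBD2-/- replicate 1 or 3 it was 3. With the replicate number as a block it was 12 lower and 1 higher, and with the Gapdh ratio as a covariate 9 lower. Over all tested genes the lower calls were 607 without MBD2+/+ replicate 1 and 535 without replicate 2, against 1076. They were 1936 with the block and 1302 with the covariate. Among arrays with poly-A signal (1 MBD2-/-, 2 MBD2+/+) the median log2 difference of the 44 genes was -0.476, against -0.067 for all tested genes. Among those without (2 and 1) it was -0.127, against -0.043. In both of these fits the lone array of a genotype is assumed to vary like the other group, so no count of passing genes is given.

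Cdca3 encodes a protein that promotes entry into mitosis and is itself an APC/C substrate. It gave 1036, 736.3 and 730.5 in MBD2-/- leukaemias and 1868, 1619 and 1346 in MBD2+/+ leukaemias, so the groups did not overlap. It fell by 0.94 on the log2 scale (SE 0.18, adjusted p = 0.0149). The checkpoint kinase-like protein BUBR1 is the product of Bub1b, which gave 1086, 1453 and 1071 in MBD2-/- leukaemias and 2551, 1894 and 2116 in MBD2+/+ leukaemias. Its groups were apart as well, and it fell by 0.86 (SE 0.17, adjusted p = 0.0152). A further probe set of Bub1b had a log2 difference of -0.98 between leukaemia genotypes. Between thymocyte genotypes that probe set gave -0.12, against 0.16 for the brightest.

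Birc5 encodes survivin, a subunit of the chromosomal passenger complex that also restrains cell death. It gave 1294, 1004 and 1321 in MBD2-/- leukaemias, against 2367, 2382 and 1788 in MBD2+/+ leukaemias, and fell by 0.84 (SE 0.17, adjusted p = 0.0153). Melk, a kinase gene of dividing cells and progenitors, gave 158.3, 212.0 and 171.1 in MBD2-/- leukaemias and 291.4, 290.0 and 262.0 in MBD2+/+ leukaemias. It fell by 0.60 (SE 0.13, adjusted p = 0.0206), again without overlap. Racgap1 encodes a subunit of centralspindlin, which with the kinesin KIF23 marks the plane of division. Its values were 384.6, 439.6 and 307.6 in MBD2-/- leukaemias and 650.7, 664.6 and 507.8 in MBD2+/+ leukaemias (log2 -0.67, SE 0.17, adjusted p = 0.0379). A second Racgap1 probe set of like brightness had a log2 difference of -0.20, and Racgap1 did not pass in 6 of 14 other settings or in 4 of the 6 fits that leave out an array. Melk was also lost in 4 of those 6 fits, and Bub1b, Birc5 and Cdca3 each in 2.

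**Figure D3:**
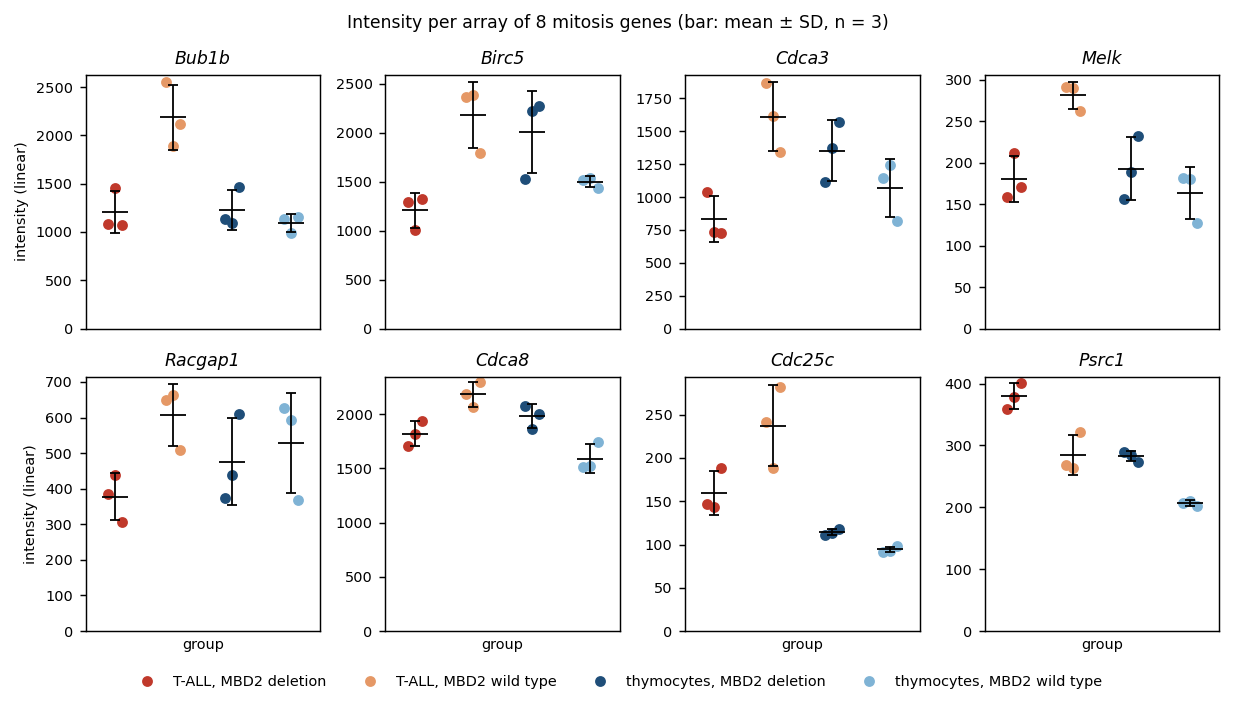
Linear intensity (vertical axis) per array of Bub1b, Birc5, Cdca3, Melk, Racgap1, Cdca8, Cdc25c and Psrc1 in the 4 groups, with bars for the mean ± SD of 3 arrays. For the first 5 genes the MBD2-/- leukaemia arrays all lie below the MBD2+/+ leukaemia arrays, whereas the thymocyte groups overlap, and Psrc1 is higher in the MBD2-/- arrays of both cell types.

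The promoters of the 4 genes with the smallest p are shown because late cell cycle genes are known to carry a cell cycle homology region (CHR, searched as TTTGAA) and CCAAT boxes, through which MuvB complexes and NF-Y act. The windows run from 250 bases before to 50 after the RefSeq start site in GRCm38.p6, 5' to 3' on the gene's strand. Capitals mark TTTGAA and CCAAT on either strand. The windows are chr6:124829926-124830225 (+ strand) for Cdca3, chr2:118597961-118598260 (+ strand) for Bub1b, chr11:117848987-117849286 (+ strand) for Birc5 and chr4:44300667-44300966 (+ strand) for Melk.
Cdca3: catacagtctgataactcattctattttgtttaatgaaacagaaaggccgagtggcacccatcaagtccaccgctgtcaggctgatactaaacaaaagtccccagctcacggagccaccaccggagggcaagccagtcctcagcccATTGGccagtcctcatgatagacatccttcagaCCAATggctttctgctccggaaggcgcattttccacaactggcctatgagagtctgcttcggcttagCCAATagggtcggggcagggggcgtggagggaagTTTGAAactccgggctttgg
Bub1b: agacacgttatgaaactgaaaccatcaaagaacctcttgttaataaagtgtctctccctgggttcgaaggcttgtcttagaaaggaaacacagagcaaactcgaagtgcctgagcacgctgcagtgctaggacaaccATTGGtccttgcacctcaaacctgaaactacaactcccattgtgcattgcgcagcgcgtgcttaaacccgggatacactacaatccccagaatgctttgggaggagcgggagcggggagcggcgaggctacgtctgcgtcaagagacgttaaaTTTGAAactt
Birc5: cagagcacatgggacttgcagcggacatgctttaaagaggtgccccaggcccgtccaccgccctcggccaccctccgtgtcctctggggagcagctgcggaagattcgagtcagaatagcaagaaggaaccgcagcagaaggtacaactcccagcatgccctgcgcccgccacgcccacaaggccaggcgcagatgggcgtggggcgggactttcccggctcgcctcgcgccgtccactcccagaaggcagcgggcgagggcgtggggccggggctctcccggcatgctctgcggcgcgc
Melk: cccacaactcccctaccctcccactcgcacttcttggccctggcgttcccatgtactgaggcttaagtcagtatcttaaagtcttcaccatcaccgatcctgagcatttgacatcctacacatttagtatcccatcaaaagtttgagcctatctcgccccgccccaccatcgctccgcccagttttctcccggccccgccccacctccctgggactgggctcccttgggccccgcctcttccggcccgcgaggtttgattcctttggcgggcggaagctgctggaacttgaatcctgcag
In Cdca3 TTTGAA begins 30 bases after the start site, and CCAAT lies 4 and 71 bases before it and, on the opposite strand, 104 bases before it. In Bub1b TTTGAA begins 40 bases after the start site and CCAAT, on the opposite strand, 113 bases before it. The windows of Birc5 and Melk hold neither string. Promoter windows were found for 38 of the 45 genes, 42 windows in all. TTTGAA was in 30 of them (71.4%), against 13.4% of 18109 windows of genes on the array and 17.9% of all 32851 windows. CCAAT was in 33 (78.6%), against 37.4% of each, and both strings were in 26 (61.9%), against 5.23% and 6.95%. The windows of the mitosis genes held a median of 23.5 CpG sites, against 16 for genes on the array, and the Cdca3 window held 10, Bub1b 15, Birc5 27 and Melk 15.

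With the brightest probe set per gene, the CDK1 module did not pass as single genes between the leukaemia genotypes. Ccnb2, which encodes cyclin B2, came closest with 1400, 1522 and 1049 in MBD2-/- leukaemias and 2341, 2148 and 1647 in MBD2+/+ leukaemias (log2 -0.62, SE 0.19, adjusted p = 0.0718). With the replicate block Ccnb2 had an adjusted p of 0.00785 and Cdk1 of 0.337. Here and below, that block was chosen from these same arrays and is not known to be a paired test. Cdk1 gave 1807, 1615 and 1449 in MBD2-/- leukaemias, inside or just below the 1912, 2325 and 1457 of MBD2+/+ leukaemias. The cyclin A gene Ccna2 had a log2 difference of -0.30 (limma, adjusted p = 0.304). Its second probe set, of mean intensity 1005 against 1844 for the brightest, gave -0.99. When probe sets were averaged per gene, Ccna2 passed (log2 -0.65, adjusted p = 0.0441). Cdc25c gave 146.9, 143.7 and 188.6 in MBD2-/- leukaemias and 241.3, 188.6 and 281.7 in MBD2+/+ leukaemias, the groups meeting at 188.6, and its adjusted p was 0.0922 without the block and 0.0173 with it.

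The other kinases and checkpoint genes spread widely. Plk1, which encodes the Polo-like kinase of mitotic entry, gave 604.0, 1020 and 547.9 in MBD2-/- leukaemias and 1247, 1290 and 711.1 in MBD2+/+ leukaemias (adjusted p = 0.282, and 0.0464 with the block). Bub1, the kinase that recruits checkpoint proteins to kinetochores, gave 859.1, 1241 and 769.3 in MBD2-/- leukaemias, below the 1332, 1658 and 1469 of MBD2+/+ leukaemias (log2 -0.65, adjusted p = 0.0647, and 0.014 with the block). Bub3, the partner of BUB1 and BUBR1, gave 4298, 4704 and 4071 in MBD2-/- leukaemias and 3790, 3888 and 4318 in MBD2+/+ leukaemias. Of the 5 checkpoint genes Bub1b alone passed.

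Ube2c had the most negative log2 difference of the set without passing. It encodes the ubiquitin-conjugating enzyme of the APC/C. Its values were 2146, 1572 and 1686 in MBD2-/- leukaemias and 4421, 4503 and 2279 in MBD2+/+ leukaemias (log2 -0.99, SE 0.28, adjusted p = 0.0574, and 0.0164 with the block). The groups did not overlap, and the MBD2+/+ value nearest the MBD2-/- arrays was that of replicate 3. Cdc20, the APC/C activator that the checkpoint restrains, had a log2 difference of -0.19.

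Psrc1 was the 1 gene whose MBD2-/- arrays all lay above. It encodes a spindle protein that regulates microtubule dynamics. It gave 359.0, 378.3 and 400.6 in MBD2-/- leukaemias, all above the 268.9, 263.6 and 321.4 of MBD2+/+ leukaemias (log2 0.40, SE 0.11, adjusted p = 0.0573, and 0.0334 with the block). A dimmer Psrc1 probe set had a log2 difference of -0.04. The proliferation marker Mki67 (log2 -0.10) and the DNA topoisomerase gene Top2a (log2 -0.20) had adjusted p of 0.711 and 0.536. A dimmer Top2a probe set, of mean intensity 369 against 4729 for the brightest, had a log2 difference of -0.68.

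In thymocytes, deletion of MBD2 called 0 of the 44 genes in either direction with limma, where 0.0195% of all tested genes were higher, 0.013% lower and 0.0324% either. Adjusted p ran from 0.589 to 0.999. At an unadjusted p under 0.05, 5 genes were higher (11.4%) and 0 lower, against 1.99% higher and 2.69% lower over all tested genes. The groups did not overlap for 5 genes, all higher in MBD2-/- thymocytes, where 4.06% of all tested genes were so placed and 4.58% the other way. These were Cdc20, Cdc25c, Cdca5, Cdca8 and Psrc1. Cdca8, which encodes borealin of the passenger complex, gave 2078, 1862 and 2005 in MBD2-/- thymocytes and 1511, 1520 and 1741 in MBD2+/+ thymocytes (log2 0.32, adjusted p = 0.973). Psrc1 gave 289.2, 284.2 and 273.2 in MBD2-/- thymocytes and 207.5, 211.0 and 202.6 in MBD2+/+ thymocytes (log2 0.42, adjusted p = 0.589). The median log2 difference of the 44 genes was 0.15, against -0.02 for all tested genes, and was -0.003 without MBD2-/- replicate 3 and 0.06 without MBD2+/+ replicate 3.

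Against normal thymocytes of the same genotype, MBD2+/+ leukaemias had 18 of the 44 genes higher (40.9%) and 0 lower, where 19.7% of all tested genes were higher, 14.2% lower and 33.9% either. At an unadjusted p under 0.05, 24 were higher (54.5%) and 0 lower, against 24.4% and 17.4%. Their median log2 difference was 0.46, against 0.06 for all tested genes. The count was 29 with the replicate block, 28 when the poly-A set was blocked and 11 without leukaemia replicate 2. Over all tested genes the higher calls in those fits were 4043, 3870 and 2333, against 3031 in the main fit. The groups did not overlap for 26 genes in the higher direction (59.1%) and 1 in the lower (2.27%), against 27.6% and 18% of all tested genes.

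The genes that were higher came from most steps of mitosis. Aurkb, the kinase of the passenger complex, had the largest difference and gave 775.4, 843.5 and 505.7 in MBD2+/+ leukaemias and 329.4, 356 and 196.1 in MBD2+/+ thymocytes (2.35-fold, log2 1.23, SE 0.27, adjusted p = 0.0112; adjusted p = 0.0502 without leukaemia replicate 2). Cdc25c, a phosphatase that activates CDK1, gave 241.3, 188.6 and 281.7 in MBD2+/+ leukaemias and 91.9, 93.0 and 98.1 in MBD2+/+ thymocytes (log2 1.18, adjusted p = 0.000953). Espl1, which encodes separase, the protease that cuts cohesin at anaphase, had a log2 difference of 1.02. Kif20a, a kinesin gene of cytokinesis, was at 1.03, but its call was lost without leukaemia replicate 1 or 2. Plk1 (0.85) and Birc5 (0.52) were called too, but each in only 1 of the 6 fits that leave out an array. Of the 5 checkpoint genes 4 rose, Bub1b (log2 0.98), Mad2l1 (0.98), Bub1 (0.81, lost without leukaemia replicate 2) and Ttk (0.72), while Bub3 was at 0.02. The cohesin protector gene Cdca5 (0.96) and the microtubule depolymerase gene Kif2c (0.79) rose too.

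Other members did not pass in that comparison. Mki67 gave 4192, 4491 and 4583 in MBD2+/+ leukaemias, inside or below the 5122, 4633 and 4425 of MBD2+/+ thymocytes. Top2a gave 4803, 5248 and 4009 in MBD2+/+ leukaemias and 5232, 5687 and 3509 in MBD2+/+ thymocytes, with the groups overlapping. Foxm1 (log2 0.04), Kif11 (log2 -0.03), which encodes the kinesin that pushes spindle poles apart, and Cenpf (log2 -0.10) had adjusted p between 0.673 and 0.915.

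MBD2-/- leukaemias set against MBD2-/- thymocytes gave 3 genes higher (6.82%) and 3 lower (6.82%), where 18.5% of all tested genes were higher, 11% lower and 29.4% either. At an unadjusted p under 0.05, 6 were higher and 3 lower, against 23.5% and 15%. The groups did not overlap for 4 genes in the higher direction (9.09%) and 4 in the lower (9.09%), against 24.4% and 17.7% of all tested genes. The median log2 difference of the 44 genes was -0.02, against 0.01 for all tested genes. Cdc25b (log2 0.56, adjusted p = 0.0223), Cdc25c (log2 0.42, adjusted p = 0.04) and Psrc1 (log2 0.41, adjusted p = 0.0176) rose. Ube2c (log2 -1.03, adjusted p = 0.0323), Birc5 (log2 -0.72, adjusted p = 0.0271) and Cdca3 (log2 -0.69, adjusted p = 0.028) fell. Of the 6 fits that leave out an array, Cdc25c passed in 1, Psrc1 in 4 and Cdc25b, Ube2c, Birc5 and Cdca3 in 2 each. In 13 other settings Cdc25c passed in 5 and Psrc1 in 7. A dimmer Psrc1 probe set had a log2 difference of 0.10, and the dimmest -0.05. Ube2c gave 2146, 1572 and 1686 in MBD2-/- leukaemias and 2300, 4364 and 4877 in MBD2-/- thymocytes, where replicate 1 lies far below the other two. Without thymocyte replicate 2 the counts were 0 higher and 0 lower, and without thymocyte replicate 3 they were 4 and 0. Without thymocyte replicate 1 they were 1 and 3, and without leukaemia replicate 3 they were 2 and 1. Over all tested genes 2038 were higher and 1252 lower without thymocyte replicate 2, against 2845 and 1694 in the main fit.

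**Figure D4:**
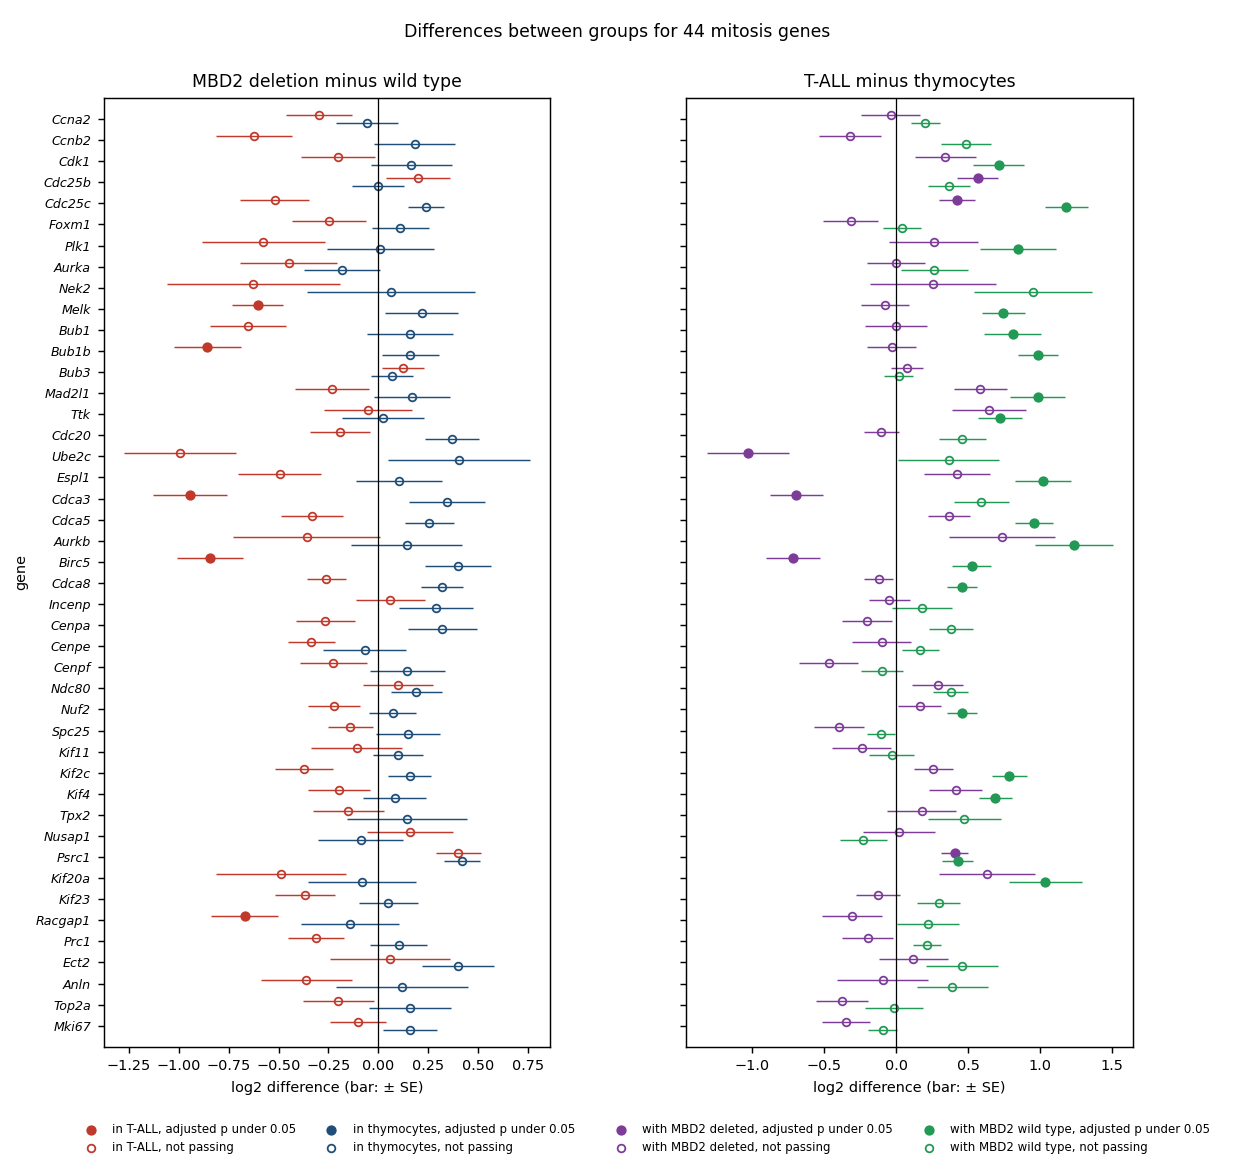
Log2 differences with SE for the 44 genes: on the left, MBD2 deletion minus wild type in T-ALL (red) and in thymocytes (blue), and on the right, T-ALL minus thymocytes with MBD2 deleted (purple) and wild type (green); filled points have an adjusted p under 0.05. Filled red points are the 5 genes lower in MBD2-/- leukaemias, no blue point is filled, and 18 green points are filled to the right of 0.

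The difference between the genotype effects was tested directly, as the effect in leukaemia minus the effect in thymocytes in a fit of all 12 arrays. It was negative and passed for 6 of the 44 genes (13.6%) and positive for 0, where 4.74% of all tested genes were lower, 7.86% higher and 12.6% either. Over all genes that is 1212 higher and 731 lower, and with 75th percentile centring 1024 higher and 1119 lower, where the median of all genes is -0.18 and that of the 44 genes -0.54. At an unadjusted p under 0.05, 13 were lower and 0 higher, against 10.3% and 13.1%. The median was -0.40, against -0.05 for all tested genes. The same coefficient is the difference between the leukaemia-to-thymocyte contrasts of the 2 genotypes. Cdca3 had a difference of -1.29 (SE 0.28, adjusted p = 0.0109), Birc5 of -1.24 (SE 0.25, adjusted p = 0.00568) and Bub1b of -1.02 (SE 0.23, adjusted p = 0.0121). These 3 kept an adjusted p under 0.05 whichever single array was left out, as did Cdca8 (-0.58, SE 0.13, adjusted p = 0.0148). Melk (-0.82, adjusted p = 0.0406) and Cdc25c (-0.76, adjusted p = 0.0253) each passed in 4 of those 12 fits. Cdca8 was lost with quantile normalization, the mean of probe sets, trend and robust variances or an added constant of 1, and Melk with no filter, trend and robust variances or the replicate block. Psrc1 had a difference of -0.02.

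Genes that work beside this set were counted from other lists. Of 71 further mitosis genes, 1 was higher (1.41%) and 4 lower (5.63%) in MBD2-/- than in MBD2+/+ leukaemias, against 9.19% and 6.98% of all tested genes. The securin gene Pttg1 was the 1 that rose (5896 ± 959 in MBD2-/- leukaemias and 3356 ± 537 in MBD2+/+ leukaemias, SD, n = 3 each; log2 0.81, adjusted p = 0.0211). Pttg1 gave 5985 ± 1572 in MBD2-/- thymocytes and 3265 ± 625 in MBD2+/+ thymocytes (log2 0.86, adjusted p = 0.801). The phosphatase gene Cdkn3 (log2 -0.57), Cenph (log2 -0.90) and Nsl1 (log2 -0.43) of the kinetochore fell. In MBD2+/+ leukaemias 35 of the 71 were higher (49.3%) and 1 lower (1.41%) than in MBD2+/+ thymocytes, against 19.7% and 14.2% of all tested genes. In MBD2-/- leukaemias 9 were higher (12.7%) and 2 lower (2.82%) than in MBD2-/- thymocytes, against 18.5% and 11%. Trip13, an ATPase gene that disassembles the checkpoint complex, rose in both of these (log2 1.89 with MBD2 wild type and 1.04 with MBD2 deleted).

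Of 51 genes of G1/S and S phase, 0 were higher and 13 lower (25.5%) in MBD2-/- than in MBD2+/+ leukaemias. Over all tested genes the shares were 9.19% and 6.98%. The median log2 difference of the 51 genes was -0.46, against -0.06 for all tested genes. Against thymocytes of the same genotype, 42 of the 51 were higher (82.4%) and 1 lower in MBD2+/+ leukaemias. Of all tested genes 19.7% and 14.2% were. In MBD2-/- leukaemias 18 of the 51 were higher (35.3%) and 2 lower, where 18.5% and 11% of all tested genes were. Among regulators of the mitosis genes, the B-MYB gene Mybl2 gave 230 ± 22.8 in MBD2-/- leukaemias and 409 ± 22.6 in MBD2+/+ leukaemias (log2 -0.79, adjusted p = 0.00354), and E2f8, a repressor of the E2F family, fell by 0.67 (adjusted p = 0.0113). The other 18 of this list of 20 did not pass, so 2 (10%) were lower, against 6.98% of all tested genes.

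Of 20 APC/C subunits and inhibitors 1 was lower (5%) in MBD2-/- than in MBD2+/+ leukaemias, Anapc15 (log2 -0.97, adjusted p = 0.0362). Over all tested genes 6.98% were lower and 9.19% higher. The median log2 difference of the 20 genes was -0.29, against -0.06 for all tested genes, and 17 of the 20 were negative. Of 20 condensin and cohesin genes 0 passed in limma, and 0 had an unadjusted p under 0.05, with a median of -0.14. Of all tested genes 14.7% were lower and 14.3% higher at an unadjusted p under 0.05. Of 19 G2/M kinases and phosphatases 2 were higher (10.5%) and 1 lower (5.26%), against 9.19% and 6.98% of all tested genes. The median of the 19 was -0.26. The mitotic kinase gene Nek6 was 1 of the higher (log2 1.17, adjusted p = 0.015). The lower gene was the phosphatase gene Cdc14b, at 95.3 ± 13 in MBD2-/- leukaemias, 845 ± 203 in MBD2+/+ leukaemias, 185.7 ± 33.3 in MBD2-/- thymocytes and 202.5 ± 28.2 in MBD2+/+ thymocytes (SD, n = 3 each; log2 -2.93 between the leukaemias, adjusted p = 0.00012). Mad1l1, the kinetochore anchor of MAD2, fell in both leukaemias against thymocytes of the same genotype (log2 -1.52 with MBD2 deleted and -1.77 with MBD2 wild type).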

How the data were processed

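Each deposited file holds 1 linear intensity per probe set, summarised by the authors. Per the labels, cRNA was made from 7 µg total RNA with biotin. How probes were summarised, corrected or normalized is not given in the sources used here. Values ran from 3.07 to 21620. Array medians of log2(intensity + 16) spread over 0.0752, under the limit of 0.1 for normalizing again (0.107 without the added constant), so none was done. Arrays carry no read depth, and their number limits the precision.

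The annotation gave 1 gene to 34945 of 45101 probe sets. For each of 18193 genes the brightest of these (by mean log2 over 12 arrays) was kept. A gene was tested if 3 or more arrays had it over their 25th percentile, which left 15420 genes. The tests used lmFit and eBayes of limma 3.58.1 (R 4.3.3), each comparison in its own fit of 6 arrays and the difference of effects in a fit of 12, with Benjamini-Hochberg adjustment over all tested genes. Adjusted p and SE are limma's. The script was tested on simulated data. Promoters are RefSeq's.

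Members and lists were chosen with earlier results of these data known. All 45 members may be named, plus Mbd2 and Xist as checks, any cell type marker, and up to 4 genes per list and comparison with the smallest adjusted p.

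To check whether replicate numbers pair the samples, deviations from group means were correlated across genes. Equal numbers gave r of 0.40, 0.23 and 0.55 between leukaemia genotypes and 0.45, 0.44 and 0.58 between MBD2+/+ leukaemias and thymocytes, so the block is reported there. They gave -0.52, 0.14 and -0.49 between thymocyte genotypes and -0.39, 0.09 and -0.43 between the MBD2-/- groups. The labels do not say what a number stands for. Replicate 3 had the highest Gapdh ratio in both leukaemia groups and MBD2+/+ thymocytes (2.98, 2.48 and 3.68), and replicate 1 in MBD2-/- thymocytes (3.33). Pairing of samples and array quality therefore cannot be told apart. The block was chosen from the same arrays and is not known to be a paired test. Alternatives were other normalizations, filters, added constants, probe set summaries and variance models, the replicate number or poly-A set as a block, the Gapdh ratio as a covariate, single poly-A sets and leaving out each array.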

Additional observations from a re-analysis of the deposited data

Results flagged for a closer look

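The effect of MBD2 deletion differed between the cell types, by limma's interaction test at an adjusted p under 0.05, for 6 of the 44 mitosis genes. The log2 effect in leukaemia minus that in thymocytes was -0.76 for Cdc25c, -1.02 for Bub1b, -1.24 for Birc5, -1.29 for Cdca3, -0.58 for Cdca8 and -0.82 for Melk. With the brightest probe set, for all 6 the log2 difference between genotypes was negative in leukaemia and positive in thymocytes. The values were -0.52 and 0.24 for Cdc25c, -0.86 and 0.16 for Bub1b, -0.84 and 0.40 for Birc5, -0.94 and 0.34 for Cdca3, -0.26 and 0.32 for Cdca8 and -0.60 and 0.22 for Melk. These signs are not particular to the 6, which were picked by the difference of the 2 effects. Of all 44 genes, 37 were negative in leukaemia and 37 positive in thymocytes. A further Bub1b probe set, of mean intensity 1167 against 1428 for the brightest, gave -0.98 and -0.12. A much dimmer Bub1b probe set, of mean intensity 30.9, gave -0.29 and 0.07. The sign for Bub1b in thymocytes thus depended on the probe set. None of the 6 passed in thymocytes on its own, and Cdc25c (adjusted p = 0.0922) and Cdca8 (adjusted p = 0.138) did not pass in leukaemia either. When probe sets were averaged per gene, Bub1b and Cdca8 did not pass. The Gapdh 3' to 5' ratios of the arrays behind these effects were 0.964, 2 and 2.98 in MBD2-/- leukaemias, 0.969, 1.02 and 2.48 in MBD2+/+ leukaemias, 3.33, 2.1 and 1.12 in MBD2-/- thymocytes and 1.08, 1.14 and 3.68 in MBD2+/+ thymocytes.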

How the results depend on the processing

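Between leukaemia genotypes the 5 lower genes became 8 with arrays centred on the 75th percentile or the poly-A set blocked, 9 with the Gapdh ratio as a covariate, 12 with the replicate block, 19 among arrays with poly-A signal and 0 among those without. Leaving out 1 array gave 0 to 7 lower and 0 to 1 higher genes, and 1 higher gene also came with an added constant of 64, with all 12 arrays or with the replicate block. Between MBD2+/+ leukaemias and thymocytes the 18 higher genes became 29 with the replicate block and 28 with the poly-A block, and 11 to 20 without 1 array. Over all tested genes the higher calls were 4043, 3870 and 2333 to 2994, against 3031. Between the MBD2-/- groups the 3 higher genes became 1 with trend and robust variances or the replicate block. They became 5 with the Gapdh covariate. Over all tested genes 2888, 2238 and 3206 were higher in these fits, against 2845. The 3 lower became 0 with the replicate block, where 1275 of all tested genes were lower, against 1694. Leaving out 1 array gave 0 to 4 higher and 0 to 3 lower. Over all tested genes it gave 2038 to 2861 higher and 1252 to 1622 lower. For the difference of effects the 6 lower genes became 10 with 75th percentile centring, 11 with the poly-A block and 12 with the Gapdh covariate. Over all tested genes the lower calls in these fits were 1119, 1064 and 1154, against 731. Without 1 array the count of the 44 genes was 4 to 7, where 562 to 809 of all tested genes were lower. With the replicate block the count of the 44 genes was 5, where 770 of all tested genes were lower. Thymocyte genotypes stayed at 0 with that block, and all tested genes also gave 0. The other counts stayed within 1.5 times. Of the 44 genes, the sign turned in at least 1 setting for 15 between leukaemia genotypes, 27 between thymocyte genotypes, 7 between the MBD2+/+ groups, 17 between the MBD2-/- groups and 5 for the difference of effects, and 0 of these turns involved a gene called in either fit. Only a part of the turns is given with values below. Other genes named in the text turned too. They include Aurkb, Ttk and Kif11 between leukaemia genotypes and Racgap1 between the MBD2+/+ groups. They also include Bub1, Bub1b, Melk and Plk1 between the MBD2-/- groups, and Bub1, Cdk1 and Plk1 between thymocyte genotypes. Between leukaemia genotypes, arrays without poly-A signal gave Cdk1 0.069, Plk1 0.072, Kif20a 0.01 and Top2a 0.083, and the mean of probe sets gave Bub3 -0.22. Between the MBD2+/+ groups, quantile normalization gave Bub3 -0.089, 75th percentile centring gave Kif11 0.05 and Top2a 0.065, and the mean of probe sets gave Cenpa -0.027, Kif11 0.247 and Top2a 0.177. For the difference of effects the poly-A block gave Psrc1 0.016. Without 1 array, differences between the MBD2+/+ groups ran from -0.039 to 0.064 for Bub3, -0.239 to 0.019 for Cenpf, -0.062 to 0.1 for Foxm1, -0.161 to 0.118 for Kif11 and -0.227 to 0.12 for Top2a. Between thymocyte genotypes Nek2 ran from -0.368 to 0.369, and the difference of effects for Psrc1 from -0.07 to 0.066. The causes were not tested. Arrays with poly-A signal alone between thymocyte genotypes or between the MBD2-/- groups, and those without it between the MBD2+/+ groups, could not be fitted.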
